A study of Mus musculus with 3 samples.

Results

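The respiratory chain is built from 2 genomes, and the 106 protein-coding genes described here are its subunits and close relatives from both: 93 nuclear genes whose symbols begin with Nduf, Uqcr, Atp5, Cox4, Cox5, Cox6, Cox7 or Cox8, with Sdha, Sdhb, Sdhc and Sdhd, and the 13 protein-coding genes of the mitochondrial genome. They were chosen by symbol from the 50043 gene IDs of the deposited table, by a rule that uses no measured value. FPKM, the reads of a gene divided by its length and by the depth of its library, reached 1 in 1 or more libraries for 102 of the 106, of which 90 were nuclear and 12 mitochondrial. Listed under 1 in every library were mt-Nd4l and the tissue forms Cox6a2, Cox8b and Cox8c.

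The series holds 3 libraries of total RNA from KH2 mouse embryonic stem cells that carry an inducible knockout of Pold3, 1 each at passages P0, P1 and P2. The question put by the study's design is how transcript levels differ between these passages. The labels give neither the time of induction of the knockout in relation to P0 nor any untreated or parental culture. Every comparison therefore sets 1 library against another, without replicate error, and passage cannot be told apart from the knockout, the library or the culture.

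Pold3, whose product is an accessory part of DNA polymerase delta, had an FPKM of 49.2 at P0 and of 13.03 and 11.6 at the later passages, so both later libraries were low in the targeted gene. Recovered depth in the order of passage was 23213528, 18059914 and 22405670 reads. Pou5f1, a defining marker of pluripotent cells, stood at 712, 746 and 670 FPKM. It was 1 of 3 pluripotency genes looked at, with Nanog and Sox2. None of the 3 passed a factor of 1.2 at P1, while at P2 Nanog was higher and Sox2 lower than at P0 by that factor. Of 20 fibroblast markers, which feeder cells would bring, 9 could be compared, and the summed FPKM of the list was 321, 298 and 310 in the order of passage. At both later passages 7 of the 9 were higher and 2 lower than at P0 by a factor of 1.2. Of all features, 27.9% were higher and 12.6% lower at P1, and 32% and 16.5% at P2. By a factor of 2, 5 of the 9 were higher and 0 lower at both, where 4.67% and 7.88% of all features passed in either direction. Among the 9, S100a6 went from 13.5 to 52.8 and 59.0 and Col1a1 from 1.98 to 5.63 and 7.09. Fn1, the largest part of the summed FPKM at P0, went from 189 to 143 and 110. Col3a1, Dcn and Lum were among the markers that did not reach an FPKM of 1 in any library, Col3a1 standing at 0.143, 0.123 and 0.148. The part of such cells in the results below was not tested.

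Complex I (NADH dehydrogenase) and complex II (succinate dehydrogenase) pass electrons to ubiquinone, complex III (the cytochrome bc1 complex) passes them to cytochrome c, and complex IV (cytochrome c oxidase) passes them to oxygen. Complexes I, III and IV pump protons across the inner membrane, and complex V (ATP synthase) makes ATP from the gradient. Complex II is wholly nuclear, while the other 4 need subunits from both genomes, which are transcribed by separate polymerases: RNA polymerase II in the nucleus, and Polrmt with the factors Tfam and Tfb2m in mitochondria. Mitochondrial genes are read as long transcripts from both strands and then cut apart, so their steady levels also reflect processing and stability. Mouse pluripotent cells are known to use glycolysis heavily while keeping a working respiratory chain.

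For the mitochondrial genes the nuclear genome matters in a further way, because parts of mitochondrial DNA have been copied into chromosomes. In the GENCODE M21 annotation, 7 unprocessed pseudogenes on mouse chromosome 1 lie in the same order as mt-Co1, mt-Co2, mt-Atp6, mt-Co3, mt-Nd3, mt-Nd4l and mt-Nd4. Without gaps, the copies of mt-Co2, mt-Atp6, mt-Co3, mt-Nd4l and mt-Nd4 matched their genes with 0 mismatches over 681, 678, 783, 294 and 876 bases. The copy of mt-Nd3, Gm28438, had 1 mismatch in 345 bases. Gm29216 covered 492 bases at the end of mt-Co1 with 6 mismatches, all in its first 13 bases, and was identical for the last 479. The stretches below show how alike a read from either genome would be, with differing bases in capitals. They come from M21 transcripts on GRCm38, whereas mm9 is the build named per the submitters' processing notes. The windows are chrM:7013-7072 (+) and chr1:24615506-24615565 (-) for mt-Co2, chrM:9459-9518 (+) and chr1:24613060-24613119 (-) for mt-Nd3, and chrM:6381-6440 (+) and chr1:24616138-24616197 (-) for mt-Co1.
mt-Co2: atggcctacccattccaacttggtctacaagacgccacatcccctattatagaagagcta
Gm28661: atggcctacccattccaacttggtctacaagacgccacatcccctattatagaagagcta
mt-Nd3: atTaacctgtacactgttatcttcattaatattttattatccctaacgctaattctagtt
Gm28438: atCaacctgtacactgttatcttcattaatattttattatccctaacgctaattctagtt
mt-Co1: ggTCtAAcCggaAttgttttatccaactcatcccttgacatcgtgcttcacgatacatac
Gm29216: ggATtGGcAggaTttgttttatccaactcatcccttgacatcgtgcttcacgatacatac

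Counted from 1 at the start of the mitochondrial gene, with its base first, the difference in mt-Nd3 is T3C and those in mt-Co1 begin with T1056A and end with A1066T. Between the start of mt-Co2 and that of its copy, the 60 bases shown do not differ, so no read inside them could be placed by sequence. The sources used here do not say how reads that fit both places were counted.

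Levels of the mitochondrial protein-coding genes split along the same line, with the exception of mt-Atp8. For each gene the share of its 50-base words that also occur in another M21 transcript was computed. That share was 0 for mt-Nd1, mt-Nd6, mt-Cytb and mt-Atp8, 7.61% for mt-Nd5, 8.19% for mt-Nd2, 51.1% for mt-Co1 and 62.2% for mt-Nd4. It was 98.0% for mt-Nd3, 98.8% for mt-Nd4l, 99.5% for mt-Atp6, 99.9% for mt-Co3 and 100% for mt-Co2, which are called near-identical to a nuclear copy below.

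The core subunit genes of complex I with a low or partial share were among the high ones. Per length, mt-Nd1 had an FPKM of 1401 at P0, 1785 at P1 and 1409 at P2. For mt-Nd2 the values were 532, 613 and 522. For mt-Nd4, in the proton-pumping arm, they were 301, 340 and 330. All 3 genes were highest at P1, and mt-Nd1 and mt-Nd2 were close to their P0 level at P2. The gene mt-Nd5 stood at 324, 391 and 390, and mt-Nd6, the only protein-coding gene on the other strand, at 217, 276 and 231. Cytochrome b of complex III, mt-Cytb, went from 969 to 1094 and 1120. The catalytic subunit of complex IV, mt-Co1, had the highest values of the 13 with 1904, 2178 and 2092 FPKM, from 68282, 60783 and 72417 reads. These 7 genes were all higher at P1 than at P0, by 0.17 to 0.35 on the log2(FPKM + 1) scale, and that held under every library scaling tried.

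At P2, 6 of the 7 were above P0, with mt-Nd2 the exception, and under median-of-ratios scaling 4 of 7 were. The median of the 7 at P2 was 0.134, and 0.003 under that scaling. For all features it was 0.070, and -0.052 under that scaling. The sizes were small: at P2 the ratio to P0 was 1.21 for mt-Nd5 (95% interval 1.18 to 1.23), 1.16 for mt-Cytb (1.14 to 1.18) and 1.10 for mt-Co1 (1.09 to 1.11). These intervals are exact conditional intervals on recovered reads, cover counting error alone and compare libraries. For mt-Nd1 the ratio was 1.27 at P1 (1.25 to 1.29) and near 1 at P2 (0.989 to 1.02).

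Each near-identical gene was listed lower than each of the 7 genes above. The subunit gene mt-Co2, which carries the copper site that takes electrons from cytochrome c, had an FPKM of 2.14 at P0, 1.46 at P1 and 3.07 at P2, from 34, 18 and 47 reads. For mt-Co3 the values were 1.70, 1.41 and 1.71 from 31, 20 and 30 reads. The ATP synthase gene mt-Atp6 had 6.45, 6.99 and 4.72. On the mitochondrial genome mt-Co1 lies upstream of mt-Co2 on the same strand, and was listed at 1904 FPKM at P0 against 2.14 for mt-Co2. No reads were listed for mt-Nd4l in any library, where a count of 0 allows up to 3 reads each.

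Of the near-identical genes mt-Nd3 was the highest and had the largest difference between P0 and P2, at 83.3 FPKM at P0, 70.3 at P1 and 44.2 at P2, from 673, 442 and 345 reads. Its P2 level was 0.531 of that at P0 (0.465 to 0.606), a difference of -0.90 on the log2 scale. The copy Gm28438, which differs from it at a lone base, was listed at 34.6, 33.9 and 30.3 FPKM. How reads were divided between the 2 features was not tested, so the value of mt-Nd3 is uncertain. Its neighbour mt-Nd4, which shares 62.2% of its words, was higher at P2 than at P0.

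The small ATP synthase gene mt-Atp8 shares no word with an annotated transcript, yet was listed at 5.91, 3.80 and 4.81 FPKM from 28, 14 and 22 reads. Same-strand exons of other genes cover 21.1% of it. It lies between mt-Co2 and mt-Atp6, where the spacing is 230 bases in mitochondrial DNA and 233 bases between the annotated copies on chromosome 1, the copy of mt-Co2 being 3 bases shorter than the gene. Sequence between the copies was not used here. The ratio of P1 to P0 was 0.643 with an interval from 0.313 to 1.26, which includes 1. For mt-Co3 the P2 over P0 interval was 0.586 to 1.71, and no difference from P0 was detectable at this depth in mt-Atp8, mt-Co2 or mt-Co3 at either later passage. For mt-Co2 the P2 over P0 interval was 0.902 to 2.30, but P2 was above P1 with a ratio of 2.11 (1.2 to 3.85) on 47 and 18 reads. The mitochondrial ribosomal RNAs, abundant in cells as a rule, were listed at 4.65, 5.16 and 3.65 for mt-Rnr1 and 5.55, 6.79 and 5.56 for mt-Rnr2. Their shares of words found in another transcript were 0 and 1.04%, so they too were low without a near-identical copy. Of 22 mitochondrial tRNA genes, 21 were at 0 in all libraries.

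**Figure D1:**
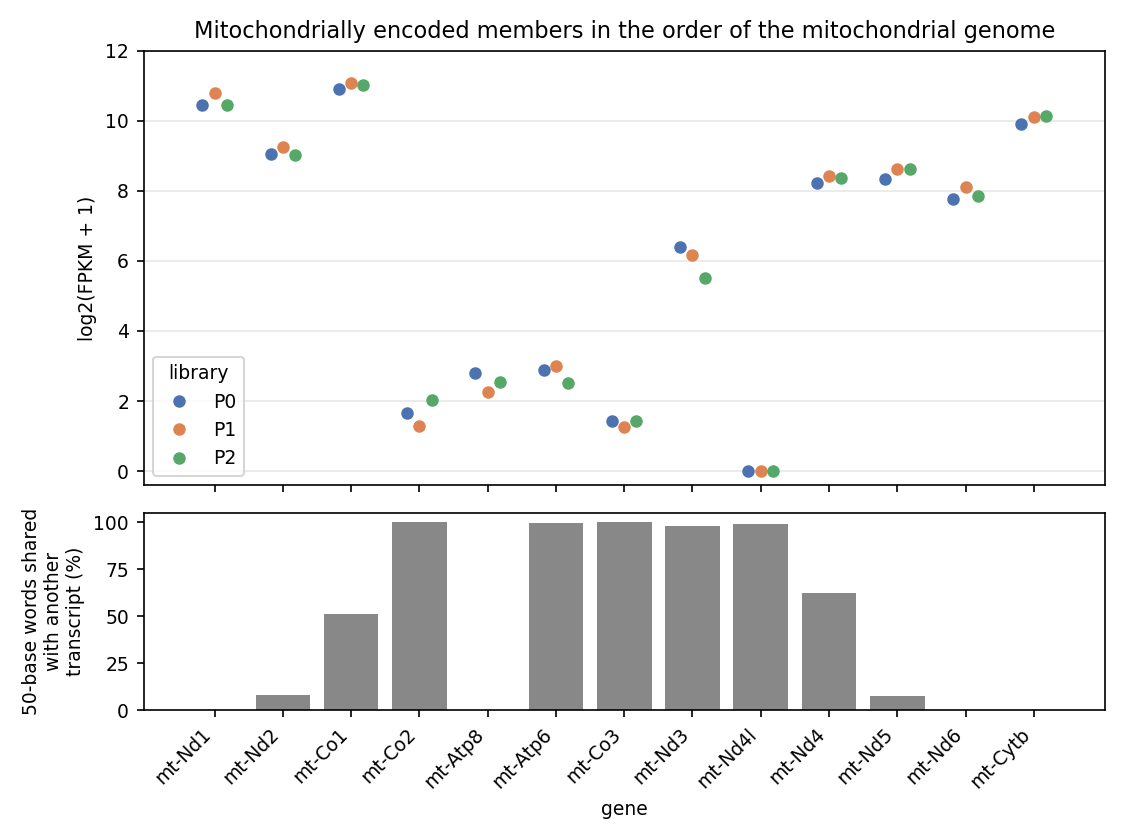
The upper panel plots log2(FPKM + 1) of the 13 mitochondrial protein genes in each library, in genome order, and the lower panel the percentage of each gene's 50-base words found in another annotated transcript. The genes at 98.0% or more and mt-Atp8 lie below the other 7 in every library.

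Nuclear members moved little as a whole. From P0 to P1 the median difference over 89 measured nuclear members was 0.03 on the log2(FPKM + 1) scale, against 0.06 over all 13288 features tested. From P0 to P2 it was 0.04 over 90 members, against 0.07 over all 13472. The mitochondrial medians, over 12 genes, were 0.18 and 0.05. Median-of-ratios scaling shifted the median of all features by -0.11 at P1 and -0.12 at P2. Positive differences from P0 of about these sizes or smaller can therefore change sign with that scaling, as the nuclear medians did. At P2 those of Cox6b1 (0.12) and Cox7b (0.13) did so too.

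A difference by a factor of at least 2 on that scale was seen in 0 of 89 nuclear members at P1, where 4.67% of all features passed it. At P2 it was seen in 1 of 90, Ndufa4l2, where 7.88% of all features did. Ndufa4l2 reached an FPKM of 1 at P2 alone (0.314, 0.288 and 1.77), so it entered the P2 counts only through the library where it was high. At a factor of 1.5, 3 nuclear members were higher and 1 lower at P1 (13.8% of all features passed in either direction), and 3 were higher and 1 lower at P2 (19.9%). At a factor of 1.2, 10 were higher and 1 lower at P1, where 27.9% of all features were higher and 12.6% lower. At P2, 18 were higher and 4 lower, where the background was 32% and 16.5%. The nuclear members were thus past these factors no more often than features at large. Both comparisons use the P0 library.

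Between P1 and P2, 1 nuclear member, again Ndufa4l2, was higher by a factor of 2 (background 1.66%). It entered this count too only through P2. It was also the 1 higher by a factor of 1.5, and Atp5k was the 1 lower (background 6.18%). By a factor of 1.2, 3 were higher and 6 lower, beside 15% and 11.2% of all features. Most members are expressed well above the average feature, so the counts were also taken at an FPKM of at least 50. There, 6 of 70 nuclear members were higher and 0 lower at P1, with 15% and 11.3% of all features that high. At P2, 10 were higher and 1 lower, with 20% and 16.3%. From P1 to P2, 0 were higher and 2 lower, with 6.01% and 4.91%.

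Complex I, with 36 nuclear members, was close to level. Its median difference was -0.02 at P1 and 0.00 at P2, and at P2 18 members were above P0 and 18 below. Among the 7 nuclear core subunits, which hold the flavin and the iron-sulfur clusters, none passed a factor of 1.2 at either passage. Ndufs1, the largest of them, had 112, 107 and 102 FPKM, and Ndufv1, which binds NADH, had 183, 202 and 206. The accessory subunits ranged more widely. Ndufb6 had the largest upward difference, from 69.6 to 86.8 and 102 FPKM, with a P2 ratio of 1.47 (1.35 to 1.60). Exons of other genes on the opposite strand cover 39.0% of Ndufb6, and the sources used here do not give the strand of the libraries. Ndufa11 went from 23.9 to 27.8 and 30.7, and Ndufb7 and Ndufb9 also passed a factor of 1.2 at P2.

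The largest downward differences at P2 were in Ndufb2, at 1.48, 1.28 and 0.893 FPKM, and Ndufb5, at 47.6, 43.2 and 40.8, of which Ndufb2 alone passed a factor of 1.2. For Ndufb2 these values rest on 43, 29 and 25 reads and the ratio of 0.602 has an interval of 0.353 to 1.01. Levels between genes depend on the length used: that recovered for Ndufa11 was 2661 bases, beside a mean of 583 over its M21 transcripts.

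The 4 subunits of complex II, all nuclear, stayed within a factor of 1.2. Sdha, the flavoprotein that oxidises succinate, had 449, 417 and 441 FPKM, and Sdhb, its iron-sulfur partner, 73.8, 63.2 and 63.7. The membrane anchors Sdhc and Sdhd had 56.7, 55.8 and 57.5, and 99.7, 102 and 106. Sdhb was the lowest relative to P0, with a P2 ratio of 0.863 (0.808 to 0.922).

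In complex III, 1 of 8 nuclear subunits passed a factor of 1.2 at P2: Uqcrc1, a core protein of the matrix side, at 350, 401 and 433 FPKM. Its fellow core protein Uqcrc2 went the other way, with 153, 138 and 138. Uqcr10 was 253, 303 and 279. The Rieske iron-sulfur protein Uqcrfs1 had 91.1, 82.6 and 84.4, and Cyc1, cytochrome c1, which the naming rule does not take in, had 236, 217 and 214. The median over the 8 was 0.08 for P1 and -0.08 for P2 relative to P0, with 5 and 3 of them above P0.

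Complex IV differed from this. Of its 15 measured nuclear members, 14 were above P0 at P1 and 14 at P2, with medians of 0.23 and 0.31, where 57.6% and 57.7% of all features were above P0. Under median-of-ratios scaling 11 and 10 of the 15 were above P0, with medians of 0.11 and 0.18, and under quantile normalization 14 and 13. The median of all features was itself -0.05 at P1 and at P2 under median-of-ratios scaling, and -0.04 and -0.05 under quantile normalization. Past a factor of 1.2, 6 were higher and 0 lower at P1 (27.9% and 12.6% of all features), and 9 were higher and 1 lower at P2 (32% and 16.5%). Under median-of-ratios scaling 3 were higher at P1 and 5 at P2, but the share of all features was not counted under that scaling. Of the 12 members at an FPKM of at least 50, 11 were above P0 at each passage, where 49.1% and 50.1% of all features that high were. By a factor of 1.2, 4 of the 12 were higher and 0 lower at P1, beside 15% and 11.3% of all features that high. At P2, 6 were higher and 1 lower, beside 20% and 16.3%. No test of the complex against the others can be made with 1 library per passage.

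Among the 11 subunits of complex IV common to most tissues, counting Ndufa4, the largest upward difference was in Cox4i1, which takes part in the assembly and the ATP response of the enzyme. Its FPKM was 638, 796 and 913 in the order of passage, a ratio of 1.43 at P2 (1.39 to 1.47). Ndufa4, first described as a complex I protein and now placed in complex IV, had 194, 244 and 259. Cox6a1 had 490, 565 and 630, Cox5b, the zinc-binding subunit, 417, 486 and 526, and Cox8a 435, 530 and 540. All 5 were ordered P0, P1, P2 from low to high, and these 5 common subunits were past a factor of 1.2 at P2. Under median-of-ratios scaling 2 common subunits were past it, and the median of the 11 at P2 was 0.01 in place of 0.14. The median of all features was then -0.05 in place of 0.07.

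The remaining common subunits were nearer to P0. Cox6b1 stood at 295, 346 and 321, Cox7b at 241, 277 and 263, and Cox7a2 at 212, 215 and 234. Cox6c and Cox5a, at 139, 150 and 143 and at 53.0, 55.4 and 53.6 FPKM, had P2 ratios of 1.03 and 1.01 with intervals that include 1, and under median-of-ratios scaling both, with Cox6b1 and Cox7b, were below P0 at P2. Cox7c was the exception in direction, at 783, 738 and 633, a P2 ratio of 0.808 (0.783 to 0.833). Of its 50-base words, 22.1% occur in other transcripts, the nearest of which, Gm10012, was listed at 0.153 FPKM at P0.

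Tissue forms of complex IV were also above P0 where they could be measured. Cox6b2, the testis form of Cox6b1, had 76.3, 121 and 92.5 FPKM, with a ratio of 1.59 at P1 (1.45 to 1.74) and 1.21 at P2 (1.10 to 1.33). Cox7a1, the heart and muscle form of Cox7a2, had 20.9, 25.1 and 33.0. Its interval at P1, 0.985 to 1.46, includes 1, and its ratio at P2 was 1.58 (1.33 to 1.89). Cox4i2, the lung form of Cox4i1, was at 1.06, 2.43 and 2.26 from 18, 32 and 37 reads, and the testis form Cox7b2 at 1.11, 2.76 and 2.06 from 14, 27 and 25. For Cox7b2 the interval at P2, 0.925 to 3.85, includes 1. The common form was the higher in each pair and library, and the nearest approach was Cox6b1 at 346 against Cox6b2 at 121 in P1.

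**Figure D2:**
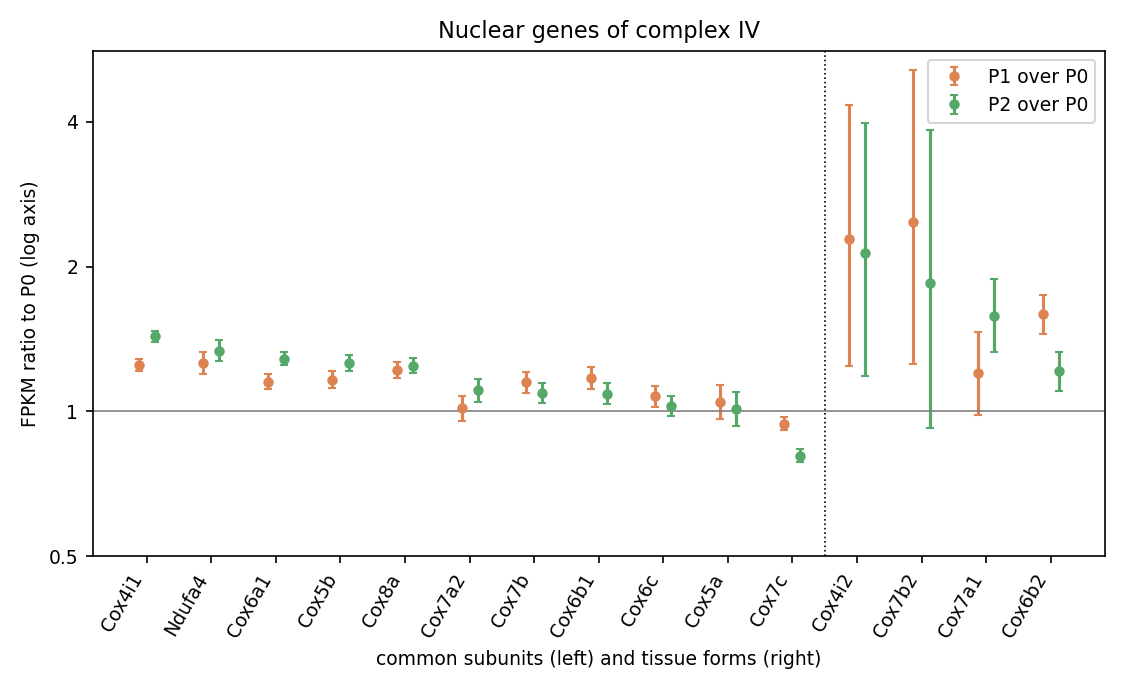
Ratios of FPKM to P0 on a log axis for the 15 measured nuclear genes of complex IV, at P1 and P2, with common subunits left of the dotted line and tissue forms right of it. Bars are exact 95% counting intervals, not replicate error, and Cox7c is the gene below 1 at both passages.

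Complex V had the largest summed FPKM of the nuclear complexes, and most of its members were close to P0: 2 of 16 passed a factor of 1.2 at P1 and 1 at P2. Atp5b, the catalytic beta subunit of the F1 head, had the highest FPKM of all 106 members at 2519, 2386 and 2494, and Atp5a1, the alpha subunit, had 865, 881 and 940. The 5 F1 subunits stayed within a factor of 1.2 at both passages. In the membrane part and stalk, Atp5g1, which with Atp5g2 and Atp5g3 encodes the same c-ring protein, went from 78.1 at P0 to 90.7 at P1, and passed a factor of 1.2 at P2 with a ratio of 1.34 (1.29 to 1.39). Atp5g2 and Atp5g3 were level, at 450, 451 and 446 and at 390, 380 and 392. Atp5k and Atp5l, small subunits of the dimer interface, were highest at P1, with 140, 188 and 123 and with 19.3, 26.4 and 19.98. From P1 to P2 Atp5k was lower by a factor of 1.5.

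The remaining 11 nuclear genes of the naming rule are assembly factors or relatives. Ndufaf1 and Ndufaf2, assembly factors of complex I, had 26.5, 31.4 and 35.7 and 33.8, 41.6 and 44.4 FPKM. Opposite-strand exons cover 65.6% of Ndufaf2. Ndufaf3, another assembly factor of complex I, was the lowest relative to P0, at 18.1, 11.7 and 11.1, with a P2 ratio of 0.614 (0.515 to 0.731). Ndufaf5 had 13.4, 11.8 and 9.88. Cox7a2l, a factor in joining complexes III and IV, had 98.5, 115 and 118. Ndufa4l2, a relative of Ndufa4 known as a hypoxia-responsive gene, was at 0.314, 0.288 and 1.77 from 7, 5 and 38 reads, a P2 ratio of 5.62 with an interval of 2.48 to 14.9. Hif1a itself had 45.7, 39.1 and 35.6.

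**Figure D3:**
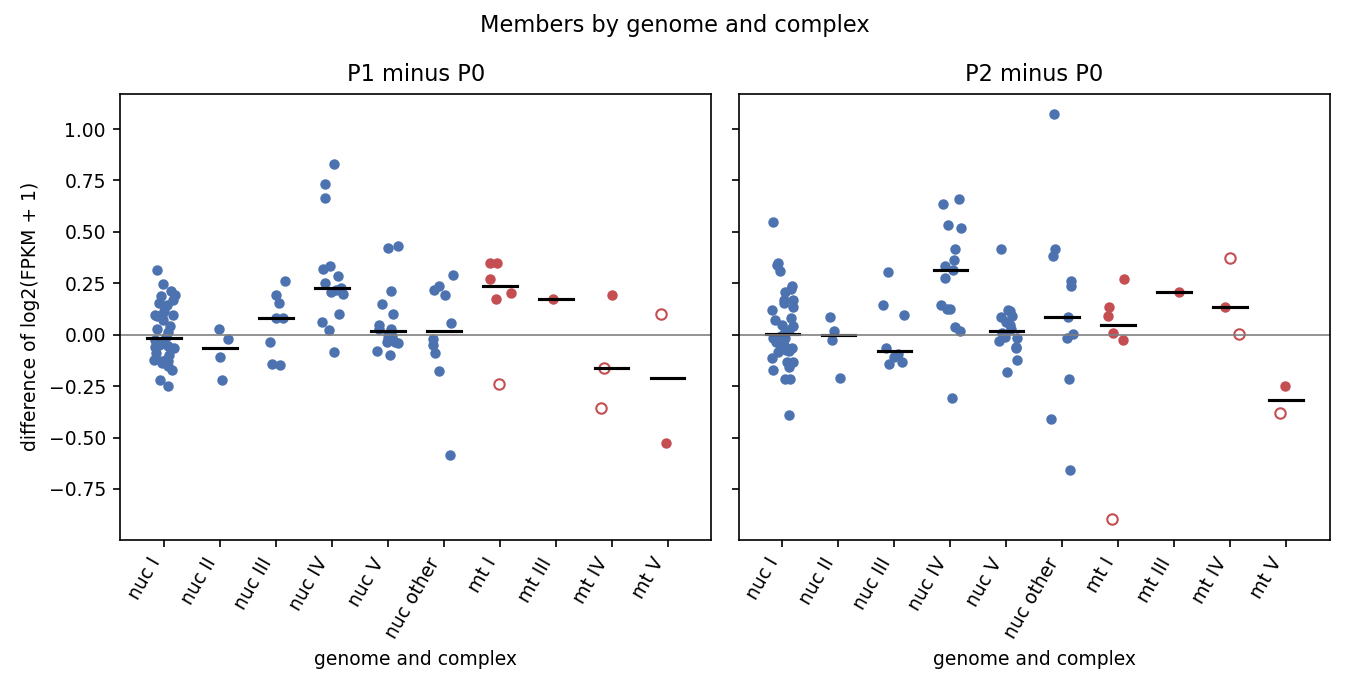
Differences of log2(FPKM + 1) from P0 for each measured member, by genome (nuc, nuclear; mt, mitochondrial) and complex, at P1 on the left and P2 on the right. Black lines are medians, open circles are mitochondrial genes near-identical to a nuclear copy, and nuclear complex IV has medians of 0.23 and 0.31.

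The balance of the genomes was measured as the summed FPKM of mitochondrial subunits over that of nuclear subunits in the same library, a ratio that a scaling common to all genes leaves as it is. Over all complexes the nuclear sum was 16119 at P0, 16695 at P1 and 17008 at P2, and the mitochondrial sum was 5747, 6761 and 6153. Their ratio was 0.357, 0.405 and 0.362, highest at P1. In complex I it was 0.831, 1.01 and 0.827, with a nuclear sum that hardly moved (3441, 3433 and 3538) and a mitochondrial sum of 2858, 3475 and 2926. Of the mitochondrial sum at P0, mt-Nd1 gave 1401.

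In complex III the ratio was 0.596, 0.631 and 0.662, where the mitochondrial side is mt-Cytb. In complex IV it was 0.477, 0.479 and 0.451, since both sides were higher: the nuclear sum went from 3996 to 4553 and 4648, and the mitochondrial, nearly all mt-Co1, from 1908 to 2181 and 2097. The read total of the nuclear complex IV genes per library depth was 1.14 times P0 at P1 (1.13 to 1.16) and 1.17 times at P2 (1.16 to 1.18). These intervals cover counting error alone, under scaling by depth. Under median-of-ratios scaling the medians of the measured complex IV genes and of all features were lower, as given above. In complex V the ratio was 0.00194, 0.00170 and 0.00148, from sums of 12.4, 10.8 and 9.53 over mt-Atp6 and mt-Atp8. The near-identical genes mt-Co2, mt-Co3 and mt-Atp6 added under 10 FPKM each to these sums, so the ratios of complexes IV and V carry their uncertainty. As a share of all reads, the nuclear subunits took 1.26%, 1.29% and 1.33%, and the mitochondrial genes 0.71%, 0.832% and 0.771%.

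**Figure D4:**
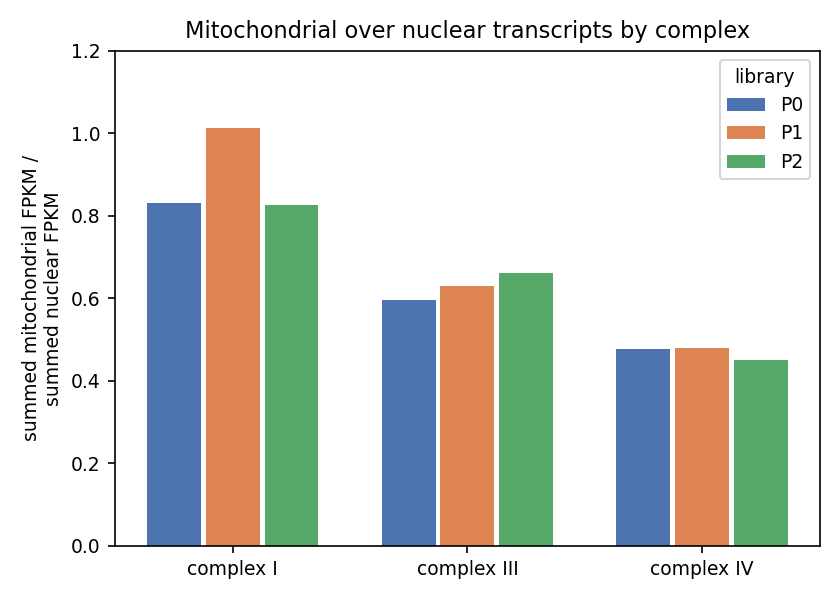
Bars give the summed FPKM of mitochondrial genes divided by that of nuclear subunit genes in complexes I, III and IV, 1 bar per library. Complex I was highest at P1 with 1.01, and complex IV lay between 0.451 and 0.479.

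Genes around the chain were taken from lists of assembly factors, carriers and regulators, whose counts at a factor of 1.2 stand beside a background at P2 of 32% of all features higher and 16.5% lower. Of 20 measured complex IV assembly factors, 7 were higher and 2 lower by 1.2 at P2, a median of 0.13. Higher were Coa4 (6.87, 10.03 and 11.7 FPKM), Coa3 (70.4, 85.9 and 98.2), Coa6, Pet100, Cmc2, Taco1 and Cox17. Taco1 is a translation activator of mt-Co1, and Coa6 and Cox17 serve copper delivery. Cox17 was under an FPKM of 1 at P0, with 0.847, 1.001 and 1.37 from 25, 23 and 39 reads. Its P2 ratio of 1.62 has an interval of 0.954 to 2.79, which includes 1. Lower were Cox10 and Cox11, which act in heme and copper insertion. These shares lie near the background of all features. Sco2 was listed at 0 in every library.

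The electron carrier list held 15 genes that encode cytochrome c or serve the synthesis and handling of ubiquinone. Of these, 7 were higher and 2 lower at P2, and 1 was higher at P1, where 27.9% of all features were higher. Cycs, somatic cytochrome c, had 46.9, 52.3 and 66.3 FPKM, a P2 ratio of 1.41 (1.335 to 1.498), and Cyct, the testis form, had 4.80, 5.66 and 9.27. Among 17 genes of mitochondrial DNA replication and transcription, 4 were higher and 0 lower at P2: Mgme1, an exonuclease, at 18.8, 21.7 and 27.3, Tfb2m at 18.9, 22.4 and 24.8, Twnk, the helicase, and Top1mt. Tfam was level at 76.5, 74.4 and 77.9, and Polrmt had 29.7, 35.1 and 34.5.

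Of 19 genes of mitochondrial RNA processing and stability, 0 were higher and 3 lower at P2, namely Fastkd1 at 12.4, 10.03 and 8.04, Ptcd2 at 21.3, 17.3 and 16.0, and Fastk at 49.2, 38.9 and 37.7. Lrpprc, which with Slirp keeps mitochondrial mRNAs stable, had 100.2, 100.2 and 89.7. Among 12 measured nuclear regulators of respiratory genes, 0 were higher and 4 lower at P2. Esrrb, a nuclear receptor also known for its role in naive pluripotency, had the largest difference with 221, 127 and 118, and Nrf1, a transcription factor of respiratory genes, had 35.9, 28.8 and 29.2. Pprc1, a coactivator of the same family as PGC-1, and Hif1a were the others.

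Further from the chain, outer membrane and import genes had 0 higher and 6 lower of 14 at P2, among them Hspa9 (787, 635 and 615) and Tomm40 (191, 145 and 150). For this list and those that follow, the background is the same 32% of all features higher and 16.5% lower. The citric acid cycle had 0 higher and 1 lower of 13, Idh3a, at 67.1, 55.1 and 53.5. Assembly factors of complex I outside the naming rule had 3 higher and 2 lower of 10, with Lyrm2 at 10.8, 16.9 and 15.6 and Tmem126a at 46.9, 37.7 and 33.6. Of the 7 genes listed for complex III, Uqcc1, an assembly factor, was higher at 29.2, 36.2 and 42.9. For complex II, Sdhaf2 was higher and Sdhaf3 lower among 3 measured. The 5 assembly factors and inhibitor of ATP synthase had none past 1.2.

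Promoters of the nuclear members were compared for motifs of factors known to act on respiratory genes. RefSeq promoter windows (GRCm38.p6, 250 bases before to 50 after the start) were matched for 74 of the 93 by symbol. The NRF1 motif, GCGC followed by A, any base and GCGC again and searched on both strands, was in 19 of 74 (25.7%), beside 5.19% of all 27025 genes in the promoter table and 15.9% of genes with FPKM of at least 50. By complex it was in 6 of 13 windows of complex V, 7 of 32 of complex I and 1 of 13 of complex IV, Cox6a1. In complex IV no window was matched for Cox4i1, Cox4i2, Cox6a2, Cox6c and Cox8c, so these were not searched. The ETS motif CCGGAAG, which GABP binds, searched likewise, was in 24.3% of members against 9.93% of all genes and 25.9% of those at FPKM of at least 50. The YY1 motif AAGATGGC was in 13.5% against 3.19% and 7.62%, with 7 of its 10 windows in complex I and 0 in complex IV. A match is a description of these letters and says nothing of binding.

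The Cox6a1 window is shown because, of the 13 matched windows of complex IV, it alone holds the NRF1 motif. This window holds that motif at positions 89 and 134, and the ETS motif on the other strand at 235. It lies at chr5:115348909-115349208 (-) on GRCm38.p6, and capitals mark the motifs, which do not overlap.
Cox6a1: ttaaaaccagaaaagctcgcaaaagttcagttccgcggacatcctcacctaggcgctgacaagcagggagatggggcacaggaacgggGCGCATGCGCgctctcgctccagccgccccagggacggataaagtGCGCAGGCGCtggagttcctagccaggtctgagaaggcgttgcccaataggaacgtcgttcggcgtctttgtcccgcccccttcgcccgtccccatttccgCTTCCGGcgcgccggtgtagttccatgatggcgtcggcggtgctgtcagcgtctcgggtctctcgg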

How the data were processed

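The authors deposited 1 table of FPKM values for 50043 gene IDs in 3 libraries. The aligner tools Bowtie2 2.0.6 and TopHat2 2.0.9 and the build mm9 appear per the submitters' processing notes. Not given in the sources used here are the counting program, its annotation, the strand and the treatment of reads with several matches. Symbols came from GENCODE M21 for 49326 IDs. Whole reads were recovered from FPKM by finding the library totals that turn values times length into whole numbers: with M21 mean lengths within 1 base, 21609 of 25801 IDs above 0 (83.8%) were whole in all libraries (relative tolerance 1e-08). For other genes a length near that mean was searched, and levels between genes depend on it.

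Libraries were compared as log2(FPKM + 1), which understates changes of low genes, where either library had an FPKM of 1 or more. With 1 library per passage no test was made and factors of 2, 1.5 and 1.2 are sizes, not tests. Exact 95% intervals (Clopper-Pearson, on reads of 2 libraries) cover counting error only; without molecular identifiers, reads are not independent molecules. The median half-width for nuclear members at P2 was 0.09 on the log2 scale. Shared words of 50 bases were counted in M21 transcripts, at 90% or more called near-identical. By plan, named genes are Pold3, all mitochondrial members, and the 2 largest rises and falls of each complex between P0 and P2. Also planned were members past a factor of 1.5, tissue forms with their counterparts, members under 1, and the 2 largest differences of each list. Of these, Uqcrh, Atp5e, Sucla2, Lyrm7, Tmem242 and Atpaf2 are not named above. The remaining named genes, Ndufs1, Ndufv1, Uqcrfs1, Cox7a2l and some list genes among them, were chosen after their values were seen, to describe roles. Members and lists were chosen with earlier results of these data known. The steps were tested on simulated data. Python 3.11.15, numpy 2.4.6, scipy 1.17.1 and pandas 2.3.3 were used.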

Additional observations from a re-analysis of the deposited data

How the results depend on the processing

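No paired analysis was possible because there is 1 library per passage. The limits are these: no replicate error exists, and small differences from P0 can change sign with the library scaling. At P2 this reached 0.13 on the log2 scale, the difference of Cox7b. The 5 mitochondrial genes near-identical to nuclear copies also rest on how shared reads were counted. The floor of FPKM 50 and the omission of near-identical genes were chosen after seeing the data; the alternatives below changed 1 choice at a time. Changing the pseudocount to 0.1 or 5 moved no count by over 1.5 times.

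Under median-of-ratios scaling the nuclear members higher and lower by 1.2 became 5 and 8 at P1 (from 10 and 1) and 9 and 15 at P2 (from 18 and 4). The nuclear medians became -0.085 and -0.092, and the mitochondrial 0.06 at P1 and -0.061 at P2. The median of all features moved as well, to -0.050 at P1 and -0.052 at P2 (from 0.058 and 0.070). Shares of all features past 1.2 were not counted under the other scalings, so these counts have no like background. Quantile normalization gave 4 lower at P1 and 7 at P2, and a mitochondrial median of 0.12 at P2. Nuclear members lower at P1 were 3 with no floor, 2 with either rescaling of the libraries to equal sums, and 0 with a floor of FPKM 50. That floor gave 6 higher at P1, 10 higher and 1 lower at P2, and 0 higher and 2 lower between P1 and P2 (from 3 and 6), fewer genes being tested. Mitochondrial medians were 0.11 at P2 with that floor and without near-identical genes, and between P1 and P2 -0.14 with a floor of 50 and -0.23 with a floor of 5 (from -0.05).

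The change of the mitochondrial over nuclear ratio of sums is given here on the log2 scale. At P1 against P0, complex I (0.28) was 0.37 under quantile normalization, 0.22 without the highest member of each sum and 0.18 with geometric means. Complex III (0.08) was 0.16 and 0.12 under the first and last of these. Complex IV (0.01) was 0.064, -0.58 and -0.48, the low values resting on mt-Co2 and mt-Co3. Complex V (-0.19) was -0.67 without the highest member and -0.63 without near-identical genes. All complexes together (0.18) were 0.24 under quantile normalization and -0.062 with geometric means.

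At P2 against P0, quantile normalization gave 0.11 for complex I, 0.27 for III, 0.035 for IV and 0.11 together, from -0.01, 0.15, -0.08 and 0.02. Geometric means gave -0.10 for complex I, 0.21 for III and -0.11 together. Without the highest members complex IV was 0.16 and all together -0.014. At P2 against P1, quantile normalization gave -0.26 for complex I, 0.11 for III, -0.029 for IV and -0.13 together, from -0.29, 0.07, -0.09 and -0.16. Without the highest members these were -0.20 for I, 0.74 for IV, 0.33 for V and -0.20 together, and geometric means gave 0.39 for IV and -0.044 together. Without near-identical genes complex V was 0.31 (from -0.21). The cause of these differences was not tested.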
